A study of Homo sapiens with 9 samples.

Results

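The genes for ubiquitin-conjugating E2 enzymes were followed in A375R cells, a human melanoma line resistant to the kinase inhibitor PLX4032. They were chosen as the protein-coding genes with a UBE2 symbol that had a value above 0 in at least 1 library. This gave 34 genes of the 62710 in the table, from 37 protein-coding UBE2 entries, and 30 of them reached a mean normalized count of at least 10 and were tested. The normalized count is the number of reads assigned to a gene divided by a size factor for its library. Each group held 3 biological repeats: cells given DMSO (labelled WT, with no dose), cells given 10 µM VHL-r for 2 h and cells given 10 µM R4VPL3-1 for 2 h. VHL-r is the moiety that recruits the ubiquitin ligase VHL. R4VPL3-1 is the full PROTAC-like molecule, in which a linker joins the same recruiter to a part that binds the ligase RNF4. All groups are the same resistant line, so they describe 1 cell background and hold no untreated or drug-sensitive cells. Per the paper's methods, the culture medium of this line contained PLX4032.

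Ubiquitin reaches a protein through a relay. An E1 enzyme activates it, an E2 enzyme carries it on a cysteine, and an E3 ligase brings the loaded E2 to the substrate. The E2 largely sets which kind of chain is built, and related E2 enzymes carry NEDD8 or ISG15 instead of ubiquitin. RNF4, a RING ligase for SUMO-modified proteins, works with E2 enzymes of the UBE2D family, and VHL is the substrate receptor of a cullin-RING ligase, a class served by the UBE2R, UBE2D and UBE2M enzymes.

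The libraries held 26435568 to 32085626 reads, with a median of 28165279. The summed normalized count of the 34 E2 genes was 95425 to 98909 in DMSO, 95460 to 97755 in VHL-r and 94546 to 96786 in R4VPL3-1, which was 0.334% to 0.347% of the total in every library. The line was checked against marker genes. SOX10, MITF, DCT and S100B were present, PMEL was low at 20.9 to 36.8, TYR did not exceed 2.14, and MLANA was listed at 0. The sum of this melanocyte list of 8 genes was 20733 to 22517 in DMSO, 11788 to 14670 in VHL-r and 10359 to 12525 in R4VPL3-1. AXL, NGFR and EGFR, which mark dedifferentiated melanoma, summed to 11867 to 13783 in DMSO, 10749 to 11864 in VHL-r and 10680 to 11746 in R4VPL3-1. A keratinocyte list summed to 346 to 383, 295 to 314 and 242 to 297. In these 3 lists every treated library lay below every DMSO library. For the second list the sums almost met, at 11864 in VHL-r and 11867 in DMSO. SOX10 and AXL, with means of 12050 and 10164 over all libraries, made up most of the first 2 sums. The part of these lists in the E2 results was not tested. The lists for endothelial and immune cells summed to at most 32.6 and 26.9, and the fibroblast list to 1497 to 2044 in DMSO, 1293 to 2956 in VHL-r and 1604 to 2062 in R4VPL3-1. In bulk RNA, fewer cells of a type and less RNA per cell cannot be told apart.

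A further 3 protein-coding UBE2 genes were listed at 0 in all 9 libraries and are not members: UBE2F (chr2:237966827-238042782), a NEDD8-carrying E2, UBE2V1 (chr20:50081124-50115959), a catalytically inactive partner of UBE2N, and UBE2W. Each is overlapped on its own strand by a readthrough or neighbouring gene, which leaves 4.41%, 0% and 0.62% of its exon bases outside other gene spans. Across the table, 737 of 737 protein-coding genes whose span lay wholly inside other same-strand spans were at 0 in every library, against 14.8% of the 13249 genes outside every other span. UBE2V1 lay wholly inside, while UBE2F and UBE2W kept 0.25% and 0.06% of their spans outside. Genes partly inside, to any extent, were at 0 for 614 of 6038 (10.2%). With so few exon bases left to count, the 0 of these 3 genes cannot be read as absence of their transcripts. The readthrough gene UBE2F-SCLY, which did match, was counted over only 6.13% of its exon bases, at 97.4 to 127, and is kept apart from levels below.

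Per kilobase of annotated exon, the highest levels among the members belonged to E2 enzymes of neddylation and of the cell cycle. Levels were compared as normalized count per kilobase of exon lying outside other genes, for 29 genes in the DMSO libraries. That length joins all annotated exons of a gene, used or not, so the order need not be that of transcript numbers. UBE2D3, the most counted member, had 10.044 kb and stood at 790, where UBE2M had 1.743 kb. UBE2M, which loads NEDD8 on cullins, stood highest at 3404 ± 158 (SD, n = 3). UBE2C, which starts chains for the anaphase-promoting complex, followed at 2686 ± 233, and UBE2S, which extends those chains, at 2407 ± 115. UBE2T, the E2 of the Fanconi anaemia repair pathway, stood at 1428 ± 60.5. At the low end were UBE2D1 at 171 ± 16.1, UBE2E2 at 146 ± 2.26 and UBE2D4 at 127 ± 2.65, so the range was 26.7-fold. Along this order, 20 neighbouring pairs had ranges that did not overlap and 8 overlapped, among them UBE2Q1 with UBE2N, UBE2D2 with UBE2Z, and UBE2A with UBE2V2. A share of 13.9% of the 100-base windows of UBE2S, and 9.66% of those of UBE2L3, also occurred elsewhere in the genome. The share was 7.7% for UBE2G1, 4.26% for UBE2E3 and 2.94% for UBE2M. Reads from near-identical copies make these levels less certain, those of UBE2S and UBE2L3 most.

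**Figure D1:**
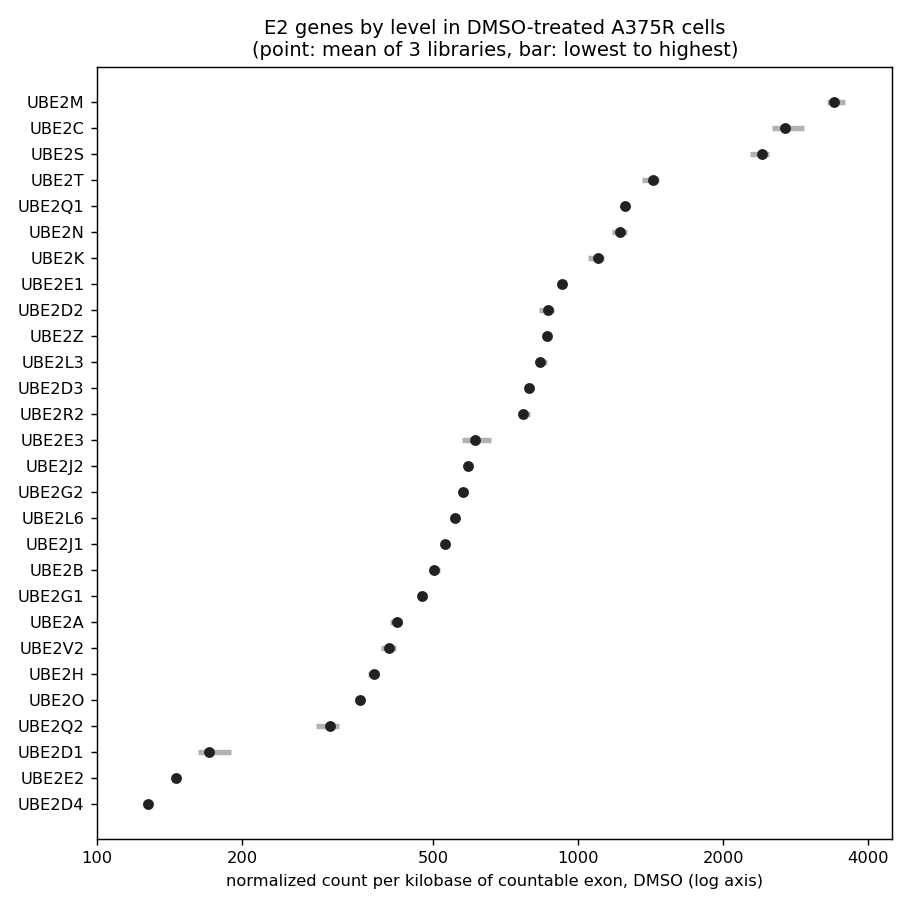
Normalized count per kilobase of countable exon (log axis) of 28 E2 genes in the DMSO libraries, with points for the mean of 3 libraries and bars from the lowest to the highest library. UBE2M at 3404 and UBE2D4 at 127 are the ends of the order.

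Each compound was first compared with DMSO, which asks what the shared recruiter and the full molecule each did to the E2 genes within 2 h. Under R4VPL3-1, 7 of 30 E2 genes (23.3%) passed the test (limma, Benjamini-Hochberg adjusted p of at most 0.05), against 24.9% of all 15230 genes tested. UBE2O, UBE2D1 and UBE2A were higher (13.1% of all genes), and UBE2R2, UBE2Q1, UBE2Q2 and UBE2N were lower (11.8% of all genes). Under VHL-r, 4 of 30 (13.3%) passed, against 19.8% of all genes. UBE2D1, UBE2A and UBE2O were higher (10.3% of all genes) and UBE2R2 was lower (9.51% of all genes). The shares of E2 genes called were thus close to or below those of all genes. Both comparisons share the 3 DMSO libraries.

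The sizes were small. Taken without sign, the log2 fold changes of the 30 genes had a median of 0.087 under R4VPL3-1 and 0.077 under VHL-r, where all tested genes had 0.14 and 0.12, and no E2 gene moved by 0.5 or more on the log2 scale in any comparison. The groups did not overlap for 12 E2 genes between R4VPL3-1 and DMSO, 5 higher and 7 lower, against 38.0% of all genes (19.1% higher and 18.9% lower). They did not overlap for 10 between VHL-r and DMSO, 5 in each direction, against 34.3% (17.1% higher and 17.2% lower). With 3 libraries a group, an uncalled gene had a 95% interval reaching between -0.42 and 0.30 under R4VPL3-1 and between -0.27 and 0.37 under VHL-r.

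**Figure D2:**
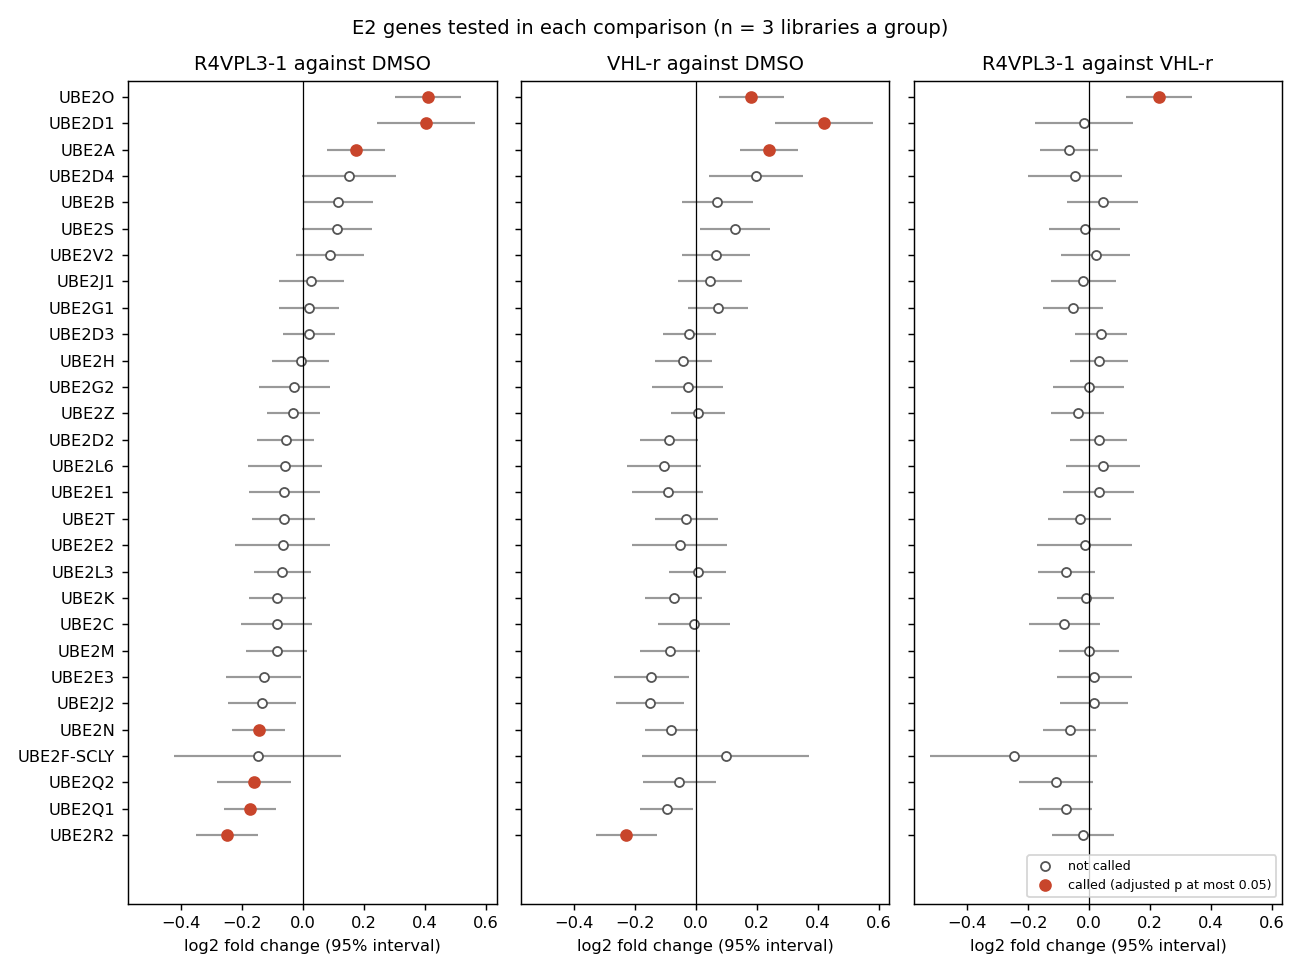
Log2 fold changes of 29 tested E2 genes in the 3 comparisons, with 95% intervals from limma on log2(normalized count + 1) and filled points for genes called at an adjusted p of at most 0.05. Filled points number 7, 4 and 1 from left to right, and UBE2O is the gene filled in all 3 panels.

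When R4VPL3-1 was compared with VHL-r at the same dose and time, the 1 pair of related compounds here, 1 of 30 E2 genes (3.33%) passed, against 1.87% of all genes (1.14% higher and 0.729% lower). That gene was UBE2O, which was higher. The molecules differ by the RNF4-binding part and the linker. Groups were separate for 7 E2 genes, 1 higher and 6 lower (UBE2F-SCLY, UBE2Q2, UBE2Q1, UBE2L3, UBE2A and UBE2N), against 14.1% of all genes (6.99% higher and 7.11% lower). Log2 fold changes had a median of -0.015 over the E2 genes and -0.0056 over all genes. The intervals of the 29 uncalled genes ran from -0.52 to 0.17, the lower end being that of UBE2F-SCLY.

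UBE2O (chr17:76389456-76453152, minus strand) encodes an unusually large enzyme that combines E2 and E3 activity and marks unassembled proteins for destruction. Its normalized counts were 2286.5, 2199.9 and 2294 in DMSO replicates 1, 2 and 3. They were 2577, 2433 and 2680.4 in VHL-r, and 3133, 3040.4 and 2842 in R4VPL3-1. The 3 groups formed a staircase without overlap, DMSO lowest and R4VPL3-1 highest. Compared with DMSO, UBE2O was 32.9% higher under R4VPL3-1 (95% interval 23.4% to 43.1%), or 0.41 ± 0.051 (SE) in log2 (limma adjusted p = 3.53e-06). Under VHL-r it was 13.3% higher, or 0.18 ± 0.051 in log2 (limma adjusted p = 0.0154). Between the compounds it was 17.2% higher under R4VPL3-1 (95% interval 8.85% to 26.2%; limma adjusted p = 0.0171). This last call was lost without VHL-r replicate 2 (limma adjusted p = 0.177), R4VPL3-1 replicate 1 (0.143) or R4VPL3-1 replicate 2 (0.084), and that against DMSO under VHL-r without DMSO replicate 2 (0.0773) or VHL-r replicate 3 (0.0686).

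UBE2D1 belongs to the UBE2D family, 4 closely related enzymes that serve many RING ligases. Their coding sequences are each 444 bases long, and that of UBE2D1 matched those of UBE2D2, UBE2D3 and UBE2D4 at 78.6%, 78.4% and 77.7% of bases, while UBE2D2 and UBE2D3 matched at 86.5%. The stretch around codon 85, the tgt or tgc codon of the cysteine that carries ubiquitin, is printed below because it shows how far reads can separate the family. It covers bases 223 to 285 of the coding sequence in GENCODE 44, and capitals mark bases that differ from UBE2D1.
UBE2D1: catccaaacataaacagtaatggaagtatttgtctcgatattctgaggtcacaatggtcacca
UBE2D2: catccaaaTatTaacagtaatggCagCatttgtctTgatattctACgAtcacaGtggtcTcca
UBE2D3: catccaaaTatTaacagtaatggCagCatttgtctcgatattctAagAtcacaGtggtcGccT
UBE2D4: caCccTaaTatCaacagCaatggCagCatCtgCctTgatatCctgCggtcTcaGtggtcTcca
The differences number 10, 9 and 15. No 100-base window of UBE2D1, UBE2D2 or UBE2D4 occurred elsewhere in the genome, and 0.94% of those of UBE2D3 did.

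UBE2D1 (chr10:58334979-58370751, plus strand) rose under both compounds. Its normalized counts were 563, 660.2 and 563 in DMSO replicates 1, 2 and 3. They were 868, 732 and 788 in VHL-r, and 783, 767 and 805 in R4VPL3-1. All 6 treated libraries lay above all DMSO libraries, and the 2 treated groups overlapped. The log2 fold change was 0.42 ± 0.077 under VHL-r (limma adjusted p = 0.000418) and 0.40 ± 0.077 under R4VPL3-1 (limma adjusted p = 0.000476). Between the compounds it was -0.02, with a 95% interval of -0.18 to 0.14.

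The other UBE2D genes did not pass in any comparison. UBE2D4 had log2 fold changes of 0.20 under VHL-r and 0.15 under R4VPL3-1 (limma adjusted p = 0.0695 and 0.155), and without R4VPL3-1 replicate 3, its lowest treated library at 594, it passed in both (0.0323 and 0.0207). UBE2D2 had -0.09 and -0.06. UBE2D3, the most counted member of all with 7520 to 8181 per library, had 0.02 under R4VPL3-1. In normalized count per kilobase, UBE2D1 therefore made up 8.3% to 9.4% of the 4 genes' sum in DMSO, 10.8% to 12.2% in VHL-r and 11.1% to 11.6% in R4VPL3-1. UBE2D2 went from 43.8% to 44.9% in DMSO to 41.2% to 41.6% and 41.4% to 41.9%. UBE2D2 and UBE2D3 stayed the main members in every library. These shares rest on the same exon lengths as the levels above.

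The UBE2E genes, which are related to UBE2D, gave no call. UBE2E3 had log2 fold changes of -0.15 under VHL-r and -0.13 under R4VPL3-1 (limma adjusted p = 0.0874 and 0.118), and the first passed without DMSO replicate 1 (0.0484) or VHL-r replicate 1 (0.0461).

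UBE2A (chrX:119474802-119591083, plus strand) and UBE2B are the human RAD6 enzymes, which ubiquitinate the replication clamp with RAD18 and histone H2B with RNF20 and RNF40. UBE2A normalized counts were 2547, 2583 and 2434 in DMSO replicates 1, 2 and 3. They were 3042, 2949 and 2932 in VHL-r, and 2887, 2793 and 2849 in R4VPL3-1. No groups overlapped, and VHL-r was highest. The log2 fold change was 0.24 ± 0.045 under VHL-r (limma adjusted p = 0.000588) and 0.17 ± 0.045 under R4VPL3-1 (limma adjusted p = 0.00709). Between the compounds it was -0.07, with a 95% interval of -0.16 to 0.03. UBE2B had log2 fold changes of 0.11 under R4VPL3-1, with a 95% interval of -0.0011 to 0.23, and 0.07 under VHL-r, and passed in neither. RAD18 was called lower, at -0.17 under R4VPL3-1 and -0.20 under VHL-r (limma adjusted p = 0.0216 and 0.00865), while RNF20 and RNF40 passed in neither. The first RAD18 call was lost in 3 of 21 alternatives, and the second was not followed through them.

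UBE2R2 (chr9:33817160-33920399, plus strand) extends ubiquitin chains on substrates of cullin-RING ligases and was the E2 gene with the largest called fall. Its normalized counts were 3546, 3382 and 3384 in DMSO replicates 1, 2 and 3. They were 2954, 3068 and 2784 in VHL-r, and 2959, 2926 and 2792 in R4VPL3-1. Every treated library lay below every DMSO library, and the treated groups overlapped. The log2 fold change was -0.25 ± 0.048 under R4VPL3-1 (limma adjusted p = 0.000557) and -0.23 ± 0.048 under VHL-r (limma adjusted p = 0.00162). Between the compounds it was -0.02, with a 95% interval of -0.12 to 0.08.

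CDC34, the close relative of UBE2R2 with the same role, carries no UBE2 symbol and is therefore no member. It went the other way. Its normalized counts were 2073, 1945 and 1851 in DMSO replicates 1, 2 and 3, then 2341, 2414 and 2542 in VHL-r, and 2315, 2397 and 2203 in R4VPL3-1. All treated libraries lay above all DMSO libraries. The log2 fold change was 0.31 under VHL-r (limma adjusted p = 0.000215) and 0.24 under R4VPL3-1 (limma adjusted p = 0.00243). Among 8 genes of the E2 fold under other names, CDC34 was the only call in either comparison with DMSO. Of all genes, 24.9% passed under R4VPL3-1 and 19.8% under VHL-r. None of the 8 passed between the compounds, against 1.87% of all genes.

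**Figure D3:**
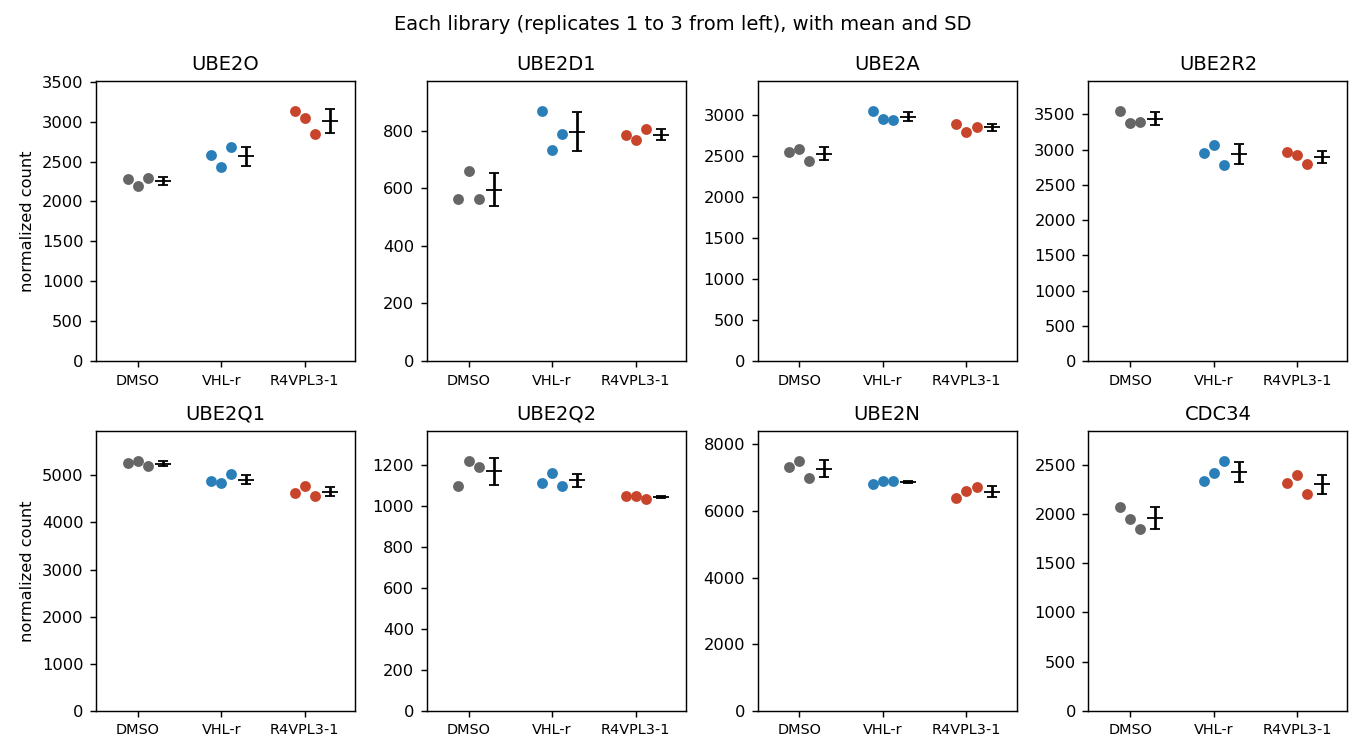
Normalized counts of the 7 E2 genes called in any comparison and of CDC34, by library, with points for replicates 1 to 3 from the left and a bar for the mean ± SD (n = 3, axes from 0). UBE2R2 falls to 2784 to 3068 in the treated libraries while CDC34 rises to 2203 to 2542.

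UBE2Q1, UBE2Q2 and UBE2N passed against DMSO under R4VPL3-1 and not under VHL-r, and none of them passed between the compounds. UBE2N (chr12:93405673-93441947, minus strand) builds non-degradative chains together with UBE2V1 or UBE2V2 and serves TRAF6 and RNF8. Its normalized counts were 7309.9, 7509 and 6997 in DMSO replicates 1, 2 and 3, then 6821, 6889.96 and 6899 in VHL-r, and 6389.6, 6613 and 6721 in R4VPL3-1. The groups stepped down without overlap. The log2 fold change under R4VPL3-1 was -0.15 ± 0.042 (limma adjusted p = 0.0132), lost without DMSO replicate 2 (0.0882) or R4VPL3-1 replicate 1 (0.074), and under VHL-r it was -0.08 (limma adjusted p = 0.197). Between the compounds it was -0.06, with a 95% interval of -0.15 to 0.02. Its partner UBE2V2 had 0.09 and 0.07 and passed in neither.

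UBE2Q1 (chr1:154548577-154559028, minus strand) and UBE2Q2 (chr15:75843307-75901078, plus strand) are less studied E2 enzymes with long amino-terminal extensions. UBE2Q1 normalized counts were 5255, 5311 and 5189 in DMSO replicates 1, 2 and 3, then 4878, 4828 and 5026 in VHL-r, and 4629, 4768 and 4569 in R4VPL3-1, again in steps without overlap. Its log2 fold change was -0.17 ± 0.041 under R4VPL3-1 (limma adjusted p = 0.00331), and -0.10 under VHL-r (limma adjusted p = 0.111). Between the compounds it was -0.08, with a 95% interval of -0.16 to 0.0089.

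UBE2Q2 normalized counts were 1094, 1219 and 1189 in DMSO, 1112, 1159.7 and 1098 in VHL-r, and 1047, 1046 and 1034 in R4VPL3-1. The R4VPL3-1 libraries lay close together and below all others, while DMSO and VHL-r overlapped. The log2 fold change under R4VPL3-1 was -0.16 ± 0.058 (limma adjusted p = 0.0455), and the call was lost in 13 of 21 alternatives, among them edgeR and DESeq2 on recovered reads (adjusted p = 0.0602 and 0.0654). It was also lost without DMSO replicate 2 (0.196) or 3 (0.123), VHL-r replicate 2 (0.0614), or R4VPL3-1 replicate 1 (0.0953), 2 (0.0923) or 3 (0.0818). Under VHL-r the log2 fold change was -0.05, and between the compounds it was -0.11, with a 95% interval of -0.23 to 0.01.

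The remaining roles gave no call. UBE2M, the NEDD8 enzyme, had 5731 to 6247 in DMSO, 5455 to 5799 in VHL-r and 5356 to 5858 in R4VPL3-1, with the groups overlapping. UBE2L6, which carries ISG15, had 1117 to 1155 in DMSO, 1009 to 1125 in VHL-r and 1055 to 1122 in R4VPL3-1. UBE2Z, which works with the E1 enzyme UBA6, had 4847 to 4954, 4875 to 5011 and 4630.3 to 4962, and its groups overlapped as well. Of the cell-cycle pair, UBE2C had 3249 to 3798 in DMSO, 3287 to 3556 in VHL-r and 3104 to 3358 in R4VPL3-1, with the groups overlapping. UBE2S had log2 fold changes of 0.11 under R4VPL3-1 (limma adjusted p = 0.154) and 0.13 under VHL-r (0.121), and both passed without R4VPL3-1 replicate 3 (0.00563 and 0.0383). UBE2T had 2582 to 2736 in R4VPL3-1 and 2622 to 2839 in DMSO.

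Of the 6 E2 genes for degradative chains and for disposal of misfolded proteins at the endoplasmic reticulum, UBE2G1, UBE2G2, UBE2J1, UBE2J2, UBE2K and UBE2R2, the last was called. UBE2J2, a membrane-anchored enzyme, had -0.13 under R4VPL3-1 and -0.15 under VHL-r (limma adjusted p = 0.0756 and 0.0542). Its groups were separate from DMSO in both, at 2399 to 2596 and 2325 to 2670.3 against 2740.0 to 2810.5. It passed under VHL-r without VHL-r replicate 2 (0.0273) or R4VPL3-1 replicate 3 (0.0382), and under R4VPL3-1 without VHL-r replicate 1 (0.0468).

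The 4 members under the count minimum were at or near 0: UBE2QL1 at 0 to 5.25, UBE2NL at 0 to 3, UBE2L5 at 0 to 1.99 and UBE2U at 0 to 0.93. UBE2F-SCLY had log2 fold changes of -0.15 under R4VPL3-1 and 0.10 under VHL-r, with the widest intervals of the set, and -0.25 between the compounds (limma adjusted p = 0.586).

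The enzymes and modifiers that surround the E2 step were followed as lists. UBB, a polyubiquitin gene, had 15059.8 to 16089.9 in DMSO, 15693 to 17362 in VHL-r and 19985 to 21059.6 in R4VPL3-1. The R4VPL3-1 libraries lay above all others, while DMSO and VHL-r overlapped. Its log2 fold change was 0.40 under R4VPL3-1 and 0.33 between the compounds (limma adjusted p = 6.44e-07 and 9.23e-05), and 0.08 under VHL-r (limma adjusted p = 0.266). Between the compounds, UBB was the 1 call among the 10 modifier genes tested in the list used here, against 1.87% of all genes. Under R4VPL3-1 2 of the 10 rose and 2 fell, against 13.1% and 11.8% of all genes. Under VHL-r 1 rose and 1 fell, against 10.3% and 9.51%. UFM1, a ubiquitin-like modifier, rose by 0.29 under R4VPL3-1 and 0.20 under VHL-r, and SUMO3, a SUMO gene, had log2 fold changes of -0.22 and -0.16 (limma adjusted p = 0.00237 and 0.0234). NEDD8, the modifier carried by UBE2M, was listed at 0 in all libraries and could not be followed.

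Of 10 E1 enzymes none rose, against 13.1% of all genes under R4VPL3-1 and 10.3% under VHL-r. Under R4VPL3-1 2 fell and under VHL-r 1, against 11.8% and 9.51% of all genes. MOCS3, which activates URM1, fell under R4VPL3-1 (log2 fold change -0.77) and under VHL-r (-0.73), with 1018.8 to 1092 in DMSO, 540 to 684 in VHL-r and 603 to 634 in R4VPL3-1, and UBA6 fell under R4VPL3-1 (-0.17). Of 34 E3 ligases and ligase subunits that use these E2 enzymes, 3 rose and 1 fell under R4VPL3-1, against 13.1% and 11.8% of all genes. Under VHL-r 3 rose and 2 fell, against 10.3% and 9.51%, and none passed between the compounds, against 1.87%. HUWE1, a large HECT ligase, had 0.42 under R4VPL3-1 and 0.24 under VHL-r. ARIH1, which starts ubiquitin on cullin-RING substrates, had 0.21 and 0.19, and TRAF6, a partner of UBE2N, 0.21 and 0.36. FZR1, an activator of the anaphase-promoting complex, had -0.28 under VHL-r. The ARIH1 call under VHL-r (limma adjusted p = 0.0128) was not followed with libraries left out. Leaving out 1 library ended some of these calls. UBA6 no longer passed when replicate 1 of DMSO or of R4VPL3-1, or DMSO replicate 2, was left out (limma adjusted p up to 0.136), and TRAF6 under R4VPL3-1 no longer passed without any of these or without replicate 2 of VHL-r or of R4VPL3-1 (up to 0.204). Under VHL-r, HUWE1 was lost without DMSO replicate 2 or VHL-r replicate 1 (up to 0.117), and FZR1 without DMSO replicate 1 or VHL-r replicate 3 (up to 0.0611). SUMO3 was lost there without replicate 1 or 2 of DMSO or replicate 1 or 3 of VHL-r (up to 0.0924). UFM1 was lost there without DMSO replicate 1 (0.0547). Over all 21 alternatives, TRAF6 and UBA6 under R4VPL3-1 lost the call in 9 and 4. Under VHL-r, HUWE1, FZR1, SUMO3 and UFM1 lost it in 5, 3, 5 and 1. The ligases that R4VPL3-1 was built around were not called. RNF4 had 372 to 466 in DMSO, 408 to 447.5 in VHL-r and 382 to 444 in R4VPL3-1, and VHL had 1532 to 1823, 1731 to 1794 and 1653 to 1796. Their log2 fold changes between the compounds were -0.08 (95% interval -0.27 to 0.11) and -0.03 (-0.15 to 0.10).

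The 250 bases before the RefSeq start are printed for the 4 E2 genes called in both comparisons with DMSO, since these moved under either compound (RefSeq, GRCh38.p14, gene strand). Capitals mark the only motif match found.
UBE2O, chr17:76453153-76453402, minus strand: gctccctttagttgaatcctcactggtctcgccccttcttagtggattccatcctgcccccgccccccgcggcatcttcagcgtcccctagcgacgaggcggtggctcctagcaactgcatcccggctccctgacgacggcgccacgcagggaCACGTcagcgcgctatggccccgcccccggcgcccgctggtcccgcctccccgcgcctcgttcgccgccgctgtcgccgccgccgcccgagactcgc
UBE2D1, chr10:58334756-58335005, plus strand: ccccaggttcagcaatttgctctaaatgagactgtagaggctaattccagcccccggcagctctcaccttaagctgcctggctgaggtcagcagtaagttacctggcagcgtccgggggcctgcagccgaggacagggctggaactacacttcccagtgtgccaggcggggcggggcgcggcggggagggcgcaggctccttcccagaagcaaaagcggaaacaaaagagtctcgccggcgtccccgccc
UBE2A, chrX:119574313-119574562, plus strand: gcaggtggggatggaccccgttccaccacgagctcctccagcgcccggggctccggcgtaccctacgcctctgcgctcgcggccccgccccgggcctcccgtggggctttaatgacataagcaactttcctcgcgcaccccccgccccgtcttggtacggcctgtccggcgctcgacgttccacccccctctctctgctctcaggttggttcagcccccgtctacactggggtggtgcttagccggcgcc
UBE2R2, chr9:33816910-33817159, plus strand: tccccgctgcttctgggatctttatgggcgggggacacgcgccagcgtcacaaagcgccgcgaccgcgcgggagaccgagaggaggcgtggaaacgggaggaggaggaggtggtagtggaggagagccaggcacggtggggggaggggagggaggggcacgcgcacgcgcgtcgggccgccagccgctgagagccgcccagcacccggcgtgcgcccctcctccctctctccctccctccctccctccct
These windows are rich in G and C, at 72% for UBE2O, 63.6% for UBE2D1, 70% for UBE2A and 73.2% for UBE2R2. The RefSeq start of UBE2A lies 99761 bases inside the span in the table, which begins far upstream.

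A set of 7 motifs was searched on both strands. ACGTG, the core of the hypoxia response element, occurred in the window of UBE2O, and in 4 of 26 E2 genes with a window (15.4%), against 18.5% of 35116 windows of all genes. The heat-shock motifs GAANNTTC and TTCNNGAA occurred in 0 and 1 of the 26 (5.78% and 6.62% of all windows), and TGACNNNGC of the antioxidant response element in 4 (15.4%, against 10.9%). The E-box CACGTG, which contains ACGTG, occurred in 0 (6.34% of all), TGACGTCA, the cyclic AMP response element, in 1 (1.65% of all) and CCAAT in 8 (30.8%, against 32% of all). A match says only that these letters are present in the window.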

How the data were processed

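Poly(A) RNA gave 9 stranded libraries, read from a single end over 100 bases. The deposited signal is a normalized count: per the labels and methods, the authors aligned reads to GRCh38 (Ensembl 109) with STAR 2.5.3a, counted them per gene with htseq-count 2.0.2 in reverse mode and divided them by DESeq2 1.36.0 size factors. Genes lying wholly inside another gene on the same strand were at 0 throughout, as when reads are assigned over whole gene spans and dropped where spans overlap, so introns may contribute to levels per kilobase of exon. Whole reads were recovered from the steps between low values (100% within a tolerance of 0.1 of a read), with size factors of 0.934 to 1.1.

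The main test was limma 3.58.1 in R 4.3.3, with the trend option, on log2(value + 1) over 15230 genes with a mean of at least 10. All 9 libraries entered a single-factor fit, and the threshold was 0.05 for p-values adjusted by Benjamini-Hochberg over all genes tested. Fold changes are on that scale, which understates those of low genes. edgeR 4.0.16 and DESeq2 1.42.0 on recovered reads served as alternatives, with other pseudocounts, filters, scalings, the robust option, a replicate block, only the libraries compared, a stricter threshold and each library left out. The fits were tested on simulated data. Spans and exons came from GENCODE 44, in which 62639 of 62710 genes, and all 37 UBE2 entries with the same coordinates, were found. RefSeq promoter windows matched 26 of 34 members.

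All members could be named, with full statistics for those called. Of the lists of E1 enzymes, modifiers, other E2 genes and E3 partners, values are given for genes called between the compounds. They are also given for the 3 largest calls against DMSO. RNF4, VHL, NEDD8, RAD18, and ARIH1 under VHL-r, were added. The members and lists were chosen with earlier results of these data known. A member and a modifier gene are not reported here by name. Amino acid sequences are not printed. P-values set each group difference against the spread between these repeats, which limma estimated over all libraries with information shared across genes.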

Additional observations from a re-analysis of the deposited data

How the results depend on the processing

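UBE2D1, UBE2A and UBE2R2 in both comparisons with DMSO, and UBE2O and UBE2Q1 under R4VPL3-1, kept direction and call in all 21 alternatives. At an adjusted p of at most 0.01, 0 E2 genes were called between the compounds (1 at an unadjusted p under 0.05), 0 of them higher, and 2 were lower under R4VPL3-1 against DMSO. limma's robust option gave 2 lower under VHL-r. With edgeR and with DESeq2 the calls were 6 under R4VPL3-1, 4 under VHL-r and 1 between the compounds. With 1 library left out, 0 to 1 E2 genes were called between the compounds (0 to 1 higher). Under R4VPL3-1, 5 to 9 were called, 3 to 5 of them higher and 2 to 5 lower, and under VHL-r 3 to 7, with 2 to 5 higher and 1 to 2 lower. Over all genes, the calls then numbered 182 to 358 between the compounds, 2866 to 3895 under R4VPL3-1 and 2286 to 3201 under VHL-r. The highest counts of all and of higher genes under VHL-r, 7 and 5, came without R4VPL3-1 replicate 3, as did the 5 higher under R4VPL3-1. Among the genes with a log2 fold change given between the compounds, the sign of 3 uncalled genes turned when 1 library was left out: the log2 fold change of UBE2D1 ranged from -0.0744 to 0.0479, that of UBE2R2 from -0.0583 to 0.0119 and that of VHL from -0.052 to 0.00787. Rescaling by TMM or the upper quartile shifted libraries against each other by at most 0.02 and 0.04 on the log2 scale.

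Libraries with the same replicate number had correlations of deviations from -0.006 to 0.121, most of them above 0. Those with different numbers had -0.148 to 0.098, so any pairing by number was weak. DMSO replicate 1 correlated best with R4VPL3-1 replicate 2 (0.098). With the replicate number as a block, 7 E2 genes were called under VHL-r, 5 higher and 2 lower, the added ones being UBE2D4, UBE2S and UBE2J2, while the calls over all genes went from 3016 to 3451. The block also took the calls over all genes from 3792 to 4241 under R4VPL3-1 and from 285 to 389 between the compounds. The causes of these changes were not tested.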

Other observations

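Beside the protein-coding genes, 10 UBE2 entries of the table are long non-coding RNAs and 54 are pseudogenes, of which 7 and 18 had a value above 0 and 2 of each reached the count minimum. UBE2D3-AS1, transcribed against UBE2D3, was higher under R4VPL3-1 than under DMSO (85.3 ± 13.1 against 46 ± 2.09 normalized counts, SD, n = 3), with a log2 difference of 0.87 ± 0.18 (SE, limma adjusted p = 0.000977). Under VHL-r its level was 62.4 ± 9.64, with a log2 difference of 0.42 (limma adjusted p = 0.109), and between the compounds it was 0.44 (limma adjusted p = 0.352), with separate groups in each comparison. UBE2CP5, a pseudogene named after UBE2C, had 41.7 ± 11.6 under R4VPL3-1 against 22.3 ± 1.25 under DMSO, with a log2 difference of 0.84 (limma adjusted p = 0.014), and 0.58 under VHL-r (limma adjusted p = 0.106). UBE2SP1 and UBE2R2-AS1 passed in no comparison, with limma adjusted p of at least 0.412 and 0.68. Reads of a pseudogene may come from its parent gene, which was not tested. No 100-base window of UBE2C occurred elsewhere in the genome as an exact match, a search that does not cover reads aligned with mismatches. UBE2C itself had log2 fold changes of -0.09 under R4VPL3-1 and -0.006 under VHL-r.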
